A study of Drosophila melanogaster with 2 samples.

Results

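The 254 regions described here are BuGZ-GFP peaks inside introns close to a promoter. Of the 2413 reproducible peaks, they are those whose summit lay 251 to 1000 bp from the nearest annotated transcription start site (TSS), inside an annotated transcript and in no annotated exon. The choice used position alone and no measured value, and the 254 made up 10.5% of the list. The study profiled the chromatin of Drosophila melanogaster embryos in 2 replicates that form 1 group. Each replicate was whole embryos of 0 to 16 h, male and female pooled, from a transgenic line stably expressing CG17912, the BuGZ protein, with GFP fused to its C-terminus. The line is the one genetic background in the series, with no untagged group among the samples, so a region bound by the antibody without the tagged protein cannot be told apart from a bound one. The antibody label names CG17912 and the peak lists set each library against a separate control, whereas the sample descriptions call the same libraries input controls.

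BuGZ is a zinc finger protein that in human cells binds the checkpoint protein Bub3 and microtubules and acts at kinetochores and the spindle. Introns near a promoter are a mixed territory in the compact fly genome. Stretches just downstream of a TSS usually lie in the first intron of the gene, where enhancers and other regulatory sequence are common. Stretches just upstream of an internal TSS are intron for the long transcripts of a gene and 5′ flank for its short ones, so they can serve as the promoter-proximal region of an alternative promoter.

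The sequences of leading regions are shown first, because the places and motifs described further on refer to them. Each is the 201 bases centred on the summit, plus strand of the dm6 build, read from the RefSeq Release 6 genome. The strongest region lay in the first intron of ph-p, which encodes a Polycomb repressive complex 1 protein (chrX:2137262-2137462, 507 bp upstream of a ph-p TSS), and it carried neither GAGAG nor CACACACA, so it has no capitals.
ph-p: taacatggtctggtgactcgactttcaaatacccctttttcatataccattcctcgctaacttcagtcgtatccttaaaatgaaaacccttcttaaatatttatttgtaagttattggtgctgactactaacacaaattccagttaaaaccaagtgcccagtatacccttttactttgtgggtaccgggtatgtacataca
Regions in Lk6 (chr3R:11760957-11761157), an eIF4E kinase gene, and in SNF4Agamma (chr3R:21203964-21204164), the gene for the gamma subunit of AMP-activated protein kinase, both upstream of a TSS of their gene, show GAGAG or its reverse complement in capitals, the word that GAGA factor recognises.
Lk6: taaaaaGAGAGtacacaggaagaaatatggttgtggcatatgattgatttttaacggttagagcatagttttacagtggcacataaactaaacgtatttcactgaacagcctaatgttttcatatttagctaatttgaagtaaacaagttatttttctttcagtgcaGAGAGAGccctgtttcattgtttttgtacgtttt
SNF4Agamma: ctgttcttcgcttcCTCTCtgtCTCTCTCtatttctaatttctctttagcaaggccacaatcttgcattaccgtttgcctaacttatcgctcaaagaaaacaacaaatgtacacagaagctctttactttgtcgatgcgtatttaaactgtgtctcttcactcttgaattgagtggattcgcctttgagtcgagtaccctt
A region downstream of the TSS of CG6333 (chr3L:17485525-17485725) shows a run of CA repeats in capitals; it was chosen for this place after its values were seen.
CG6333: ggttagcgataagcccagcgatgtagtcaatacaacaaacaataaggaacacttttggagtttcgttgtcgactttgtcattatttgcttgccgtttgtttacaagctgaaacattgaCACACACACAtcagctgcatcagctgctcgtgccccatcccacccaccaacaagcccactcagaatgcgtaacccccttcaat
Regions in Zw (chrX:19668508-19668708), the glucose-6-phosphate dehydrogenase gene, and in larp (chr3R:28326500-28326700), a gene for an mRNA-binding protein, show the word ACAGTGG or its reverse complement CCACTGT in capitals.
Zw: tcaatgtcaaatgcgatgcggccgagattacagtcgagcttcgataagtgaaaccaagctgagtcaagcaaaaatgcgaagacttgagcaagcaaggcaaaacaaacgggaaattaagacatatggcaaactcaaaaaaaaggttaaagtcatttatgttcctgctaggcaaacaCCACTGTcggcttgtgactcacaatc
larp: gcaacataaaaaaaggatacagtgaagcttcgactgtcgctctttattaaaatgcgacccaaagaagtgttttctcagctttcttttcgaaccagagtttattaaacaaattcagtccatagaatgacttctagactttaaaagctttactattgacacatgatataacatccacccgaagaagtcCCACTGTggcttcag
Regions in InR (chr3R:21590755-21590955), the insulin receptor gene, and in hiw (chrX:15043102-15043302), a ubiquitin ligase gene that limits synaptic growth, show GTAAATA or its reverse complement TATTTAC in capitals.
InR: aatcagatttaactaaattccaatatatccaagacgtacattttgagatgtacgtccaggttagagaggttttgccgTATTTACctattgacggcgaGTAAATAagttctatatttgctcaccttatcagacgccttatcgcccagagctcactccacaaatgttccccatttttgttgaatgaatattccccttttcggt
hiw: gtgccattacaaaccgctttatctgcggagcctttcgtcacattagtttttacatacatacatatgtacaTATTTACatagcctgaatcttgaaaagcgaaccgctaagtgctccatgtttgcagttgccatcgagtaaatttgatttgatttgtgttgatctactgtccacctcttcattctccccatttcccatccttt

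Peaks were dense in this stretch of intron. The bases that meet the positional rule added up to 6.70 Mb, 4.87% of the genome, and held 37.9 peaks per Mb. Intron farther than 1000 bp from a TSS held 8.77 peaks per Mb (433 peaks), intergenic sequence beyond 250 bp of a TSS held 6.48 per Mb (264 peaks) and the promoter zone within 250 bp of a TSS held 135 per Mb (1357 peaks). The pooled candidate list of 30000 regions ranks weak and strong regions alike, and its 2413 strongest by signal value are the reproducible list. Of the 2560 candidates in near-promoter introns, 9.92% were in the reproducible list (95% Wilson interval 8.82 to 11.1%), against 8.04% of candidates of every class. The same share was 4.31% in deep introns (3.93 to 4.73%), 5.8% in intergenic sequence (5.16 to 6.52%) and 18.0% in promoters (17.2 to 18.9%). All intervals in this text treat regions as units and cover counting error only; read depth is unknown, and with 2 replicates of 1 group no test between samples could be made.

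Within the reproducible list, these regions had a median strength close to that of the other classes. The lowest signal value in that list was 101, a cut shared by every class, so close medians follow in part from it. The authors' signal value, used only to rank regions within a list, had a median of 135 with quartiles of 114 and 178 and a highest value of 765. Deep intronic peaks had a median of 134, intergenic peaks 133 and promoter peaks 134. Of the 25 strongest reproducible peaks 3 were near-promoter intronic ones, and of the 100 strongest 12 were.

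**Figure D1:**
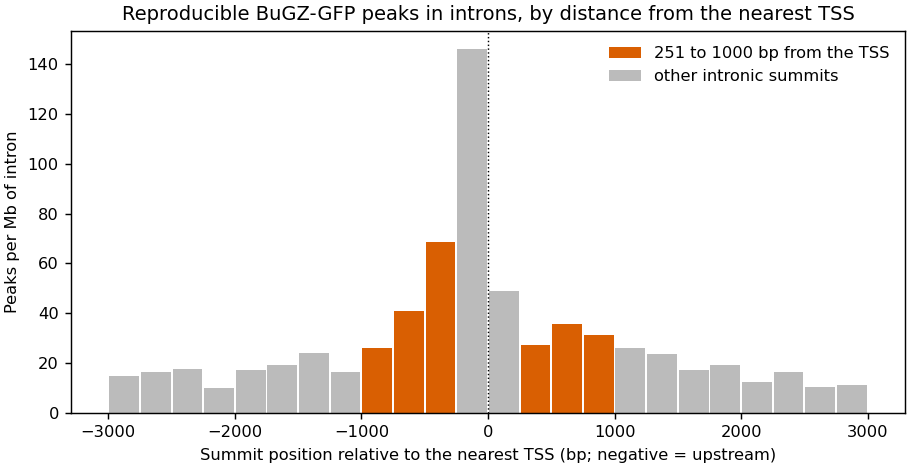
Peaks per Mb of intron (y axis) by position of the summit relative to the nearest TSS in bp (x axis, negative values upstream), in bins of 250 bp over all reproducible peaks in introns. Orange bars are the 254 regions described here and grey bars the other intronic summits, those within 250 bp being promoter summits; the orange bars stand higher upstream than downstream at 251 to 500 bp (68.6 and 27.2 per Mb) and lower at 751 to 1000 bp (26.2 and 31.3 per Mb).

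The regions fell off with distance on the upstream side and not on the downstream side. Of the 254 summits, 105 lay 251 to 500 bp from the TSS, 86 lay 501 to 750 bp away and 63 lay 751 to 1000 bp away. Upstream of the nearest TSS the density was 68.6 peaks per Mb of intron at 251 to 500 bp, 41.0 at 501 to 750 bp and 26.2 at 751 to 1000 bp. Downstream it was 27.2, 35.8 and 31.3 peaks per Mb over the same steps. Intergenic sequence upstream of a TSS showed the same order, with 43.9, 26.0 and 15.5 peaks per Mb.

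Summits were split evenly about the nearest TSS, 127 upstream and 127 downstream. The comparison set was the background, the 1041 candidates of the same positional class that rank in the lower 50% of the pooled list and overlap no reproducible peak. The downstream share was 50% in peaks (43.9 to 56.1%) and 59.8% in background (56.7 to 62.7%), a difference of -9.75 percentage points (95% Newcombe interval -16.5 to -2.95). The intron that held the summit was the first of a transcript for 202 peaks, 79.5% (74.1 to 84.0%), against 75.1% of background, and this difference of 4.41 points was within counting error (-1.54 to 9.67).

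A region upstream of a TSS of its own host gene was the place where peaks exceeded background. There were 97 such peaks, 38.2% (32.4 to 44.3%), against 23.7% of background (21.2 to 26.4%), a difference of 14.5 points (8.11 to 21.1). Of all bases that meet the rule, 20.5% lie in such places, which held 70.5 peaks per Mb. Another 121 peaks, 47.6%, lay downstream of a TSS of their host gene, against 55.4% of background, at 33.0 peaks per Mb. The nearest TSS of the remaining 36, or 14.2%, belonged to another gene, against 20.8% of background, at 21.6 peaks per Mb. In each replicate's own list, cut at the same number of strongest regions, the upstream share was 39.4% against 23.1% of background in replicate 1 and 37.5% against 25.1% in replicate 2.

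**Figure D2:**
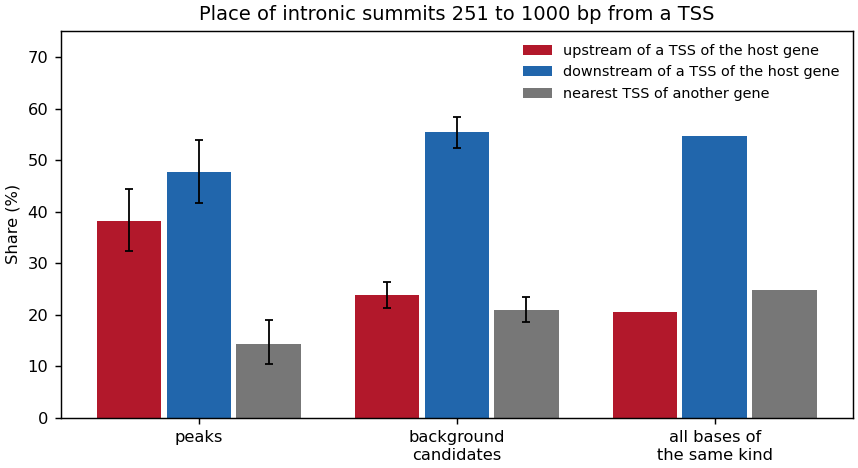
Share in percent (y axis) of summits upstream of a TSS of the host gene, downstream of one, or nearest to a TSS of another gene, for the 254 peaks, the 1041 background candidates and all bases that meet the positional rule (x axis). Error bars are 95% Wilson intervals, with none for bases; the upstream share is 38.2% in peaks and 23.7% in background.

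The excess was seen within 750 bp of the TSS. At 251 to 500 bp, 55.2% of the peaks and 30.6% of background were upstream of a TSS of their own gene, a difference of 24.6 points (13.7 to 35.0). At 501 to 750 bp the shares were 31.4% and 18.3%, a difference of 13.1 points (3.34 to 24.1). At 751 to 1000 bp they were 19.0% in peaks and 23.7% in background, a difference of -4.65 points whose interval held 0 (-13.8 to 7.45). The split by distance was made after the pooled value was seen.

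**Figure D3:**
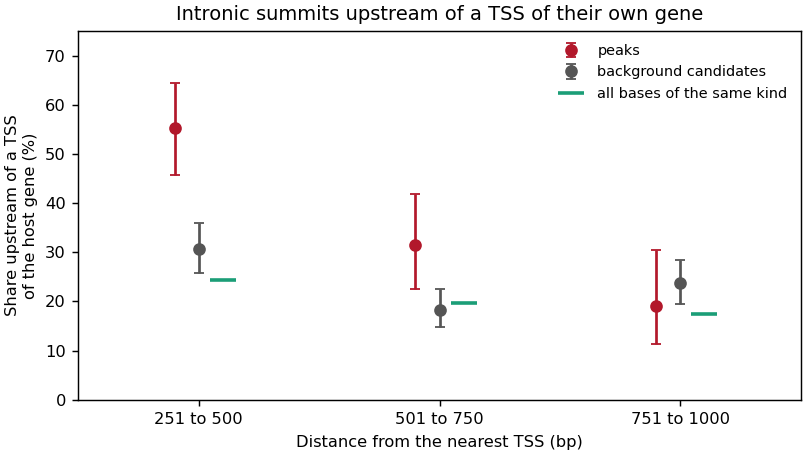
Share in percent (y axis) of intronic summits upstream of a TSS of their host gene, in 3 steps of distance from the TSS in bp (x axis), for peaks (red), background candidates (grey) and all bases that meet the rule (green dashes). Points are shares with 95% Wilson intervals; peaks stand above background in the nearest step (55.2% against 30.6%) and not in the farthest (19.0% against 23.7%).

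The host genes were counted next. The 254 regions lay in 243 host genes, 238 of them protein-coding. Of these hosts, 76.5% had more than 1 annotated TSS position, against 65.6% of the 925 hosts of background candidates and 28.6% of the 12929 genes with an intron. A summit in an intron and upstream of a TSS of the same gene requires a gene with more than 1 TSS, so this share follows in part from the places given above and is not a separate result. For all 36 regions nearest to a TSS of another gene, that TSS lay inside the host gene. It belonged to a protein-coding gene for 17 regions, a non-coding RNA gene for 17, an snRNA gene for 1 and a tRNA gene for 1.

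Peaks at the promoter of the same gene were present for a minority of the regions. A reproducible peak lay within 250 bp of any TSS of the host gene for 77 regions, 30.3% (25 to 36.2%), against 23.5% of background and 37.4% of deep intronic peaks. The difference from background was 6.78 points (0.823 to 13.2). At the nearest TSS itself a peak was present for 35 regions, 13.8%, against 7.49% of background, a difference of 6.29 points (2.19 to 11.3). By place, 26 of the regions downstream of their own TSS had one (21.5%), against 8 of those upstream (8.25%), with no background counted by place. Another reproducible peak of any class lay within 1000 bp of 59 regions, 23.2%, and the median gap to the nearest other peak was 7657 bp. The same was not counted for background or other classes, so this share cannot be called high or low.

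Few regions lay in short introns or beside splice sites. The shortest intron that held the summit was at most 1000 bp long for 16.1% of peaks and 25.3% of background, a difference of -9.12 points (-14.0 to -3.49). Summits within 100 bp of a splice site made up 9.45% of peaks and 18.3% of background (difference -8.80 points, -12.7 to -4.03). The median intron length was 3636 bp for peaks and 2923 bp for background. By chromosome arm the density was 46.3 peaks per Mb of qualifying intron on 2L (55 peaks), 41.1 on 3L (55), 37.3 on 2R (48), 34.4 on 3R (53) and 33.0 on X (42), with 1 peak on chromosome 4.

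The positional bounds cut through a continuum. The members nearest the inner bound were regions at eIF2beta, a translation initiation factor gene (signal value 127), and Usp10, a deubiquitinase gene (103), both 251 bp from the TSS. Just outside it lay intronic summits at jigr1 (195) and Lpin, the lipin gene (146), both at 250 bp. At the outer bound, a region at C3G, a gene for a Rap1 exchange factor, was inside at 999 bp (116), and one nearest rgr was outside at 1003 bp (107). Within 25 bp of the inner bound 19 intronic summits were inside and 18 outside, and at the outer bound 5 were inside and 5 outside.

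Ranks in the 2 replicates were alike for part of the regions. Each replicate has its own list of 30000 candidates, and 253 of the 254 had a summit within 200 bp in both. Among each replicate's 2413 strongest regions, 135 of the 254 were in the top of both (53.1%, 47.0 to 59.2%), 52 in that of replicate 1 alone, 53 in that of replicate 2 alone and 14 in neither. The same share was 55.0% of deep intronic peaks, 51.5% of intergenic peaks and 55.3% of promoter peaks. The median rank was 1317 in replicate 1 and 1134 in replicate 2, and the replicates' summits were a median of 29.0 bp apart. The 3 regions whose ranks differed by the largest ratio were each strong in a single replicate.

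**Figure D4:**
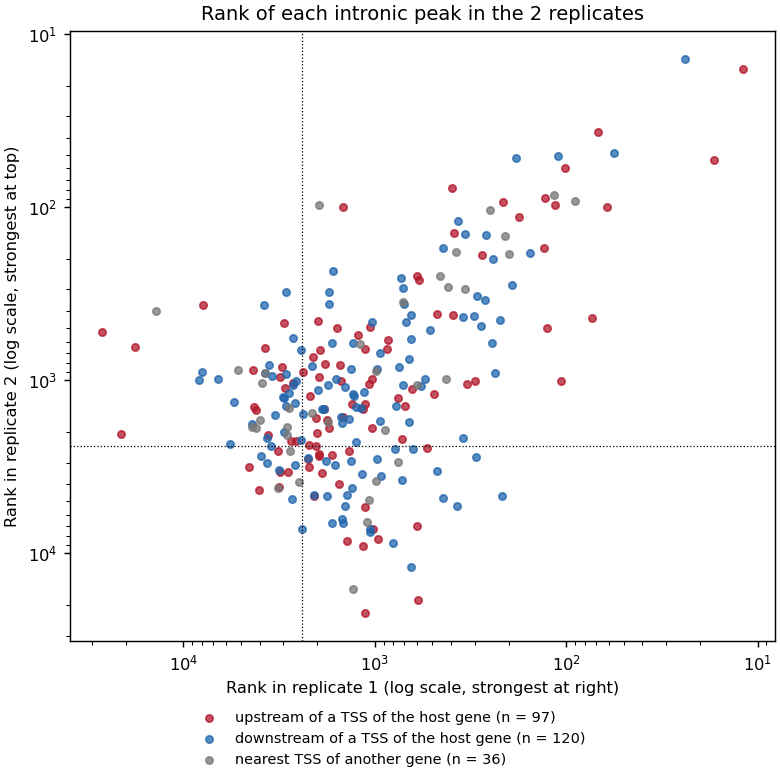
Rank of the 253 regions found in both lists in the candidate list of replicate 1 (x axis) and replicate 2 (y axis), both on log scales with the strongest at the right and top, coloured by place. Dotted lines mark rank 2413; the top right quadrant holds the 135 regions in the top of both replicates, and the 25 strongest regions ranked 500 or better in each.

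Those discordant regions lay in Droj2, a DnaJ chaperone gene, in siz, a gene for an Arf exchange factor, and in pnt, the ETS factor gene of EGF receptor signalling. The Droj2 region had a signal value of 16.3 in replicate 1 (rank 26722) and 98.8 in replicate 2 (rank 529). The siz region had 21.9 in replicate 1 (rank 13967) and 111 in replicate 2 (rank 397). The pnt region had 94.1 in replicate 1 (rank 593) and 21.0 in replicate 2 (rank 18745). Their values in the reproducible list were 107, 129 and 129.5, so none of these 3 stood out there.

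The 25 strongest regions all ranked 385 or better in replicate 1 and 500 or better in replicate 2, with summits at most 82 bp apart. They were picked by the signal value of the list pooled from both replicates. Their high ranks in each replicate follow in part from that choice. Of the 25, 13 were upstream of a TSS of their own gene, 7 downstream of one and 5 nearest to a TSS of another gene, and 20 were in a first intron. The ph-p region had signal values of 436 in replicate 1 (rank 12) and 326 in replicate 2 (rank 16). The CG9663 region, 921 bp downstream of its TSS, had 329 in both replicates (ranks 24 and 14). The Lk6 region, 978 bp upstream of a Lk6 TSS, had 386 in replicate 1 and 216 in replicate 2 (ranks 17 and 54).

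The other strong hosts are given gene by gene, with no list behind their order. A region shared by HmgD and HmgZ, neighbouring genes for HMG-box chromatin proteins, had 241 in replicate 1 and 181 in replicate 2 and lay 528 bp upstream of an HmgZ TSS. The region in wde, whose product is a cofactor of the H3K9 methyltransferase Eggless, had 158 in replicate 1 and 218 in replicate 2 and lay 529 bp downstream of its TSS. That in mod(mdg4), a BTB domain insulator gene, had 121 in replicate 1 and 162 in replicate 2. The larp region lay 336 bp upstream of a larp TSS, with 189 in replicate 1 and 181 in replicate 2. In both lists these regions ranked 182 or better, except mod(mdg4) at 338 in replicate 1; the scale of the value itself differs between lists.

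The Zw region had 187 in replicate 1 and 185 in replicate 2, and its nearest TSS, 862 bp away, was that of an antisense RNA. The SNF4Agamma region had 197 in replicate 1 and 214 in replicate 2. The region in wun, a lipid phosphate phosphatase gene that guides migrating germ cells, had 244 in replicate 1 and 221 in replicate 2, 396 bp downstream of its TSS. Rtnl1, a reticulon gene that shapes endoplasmic reticulum, held a region with 180.2 in replicate 1 and 185 in replicate 2, 318 bp upstream of a TSS. Ptp4E, a receptor tyrosine phosphatase gene, held one with 170.1 in replicate 1 and 148 in replicate 2. Others of the 25 lay in CG9837, CHES-1-like, CG31886, Reph, CG4496, CG1677, InR, hiw, sty, klar, Snp and Fhos, with signal values of 286 to 462 in the reproducible list.

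In all, 4 host genes held 3 regions each. CHES-1-like, a forkhead factor gene, held regions of 391, 145 and 105, and HmgD held 433, 185 and 106. The HmgD regions of 433 and 185 matched different regions in replicate 1 (ranks 61 and 1475). In replicate 2 both matched the same region (rank 100), so they may not be separate sites. The axon guidance family gene beat-Ib held 227, 160.2 and 124, and ps, which encodes the splicing regulator Pasilla, held 166, 109.7 and 105. Another 22 hosts held 2 regions, among them FoxK (283 and 103), another forkhead gene, and Rtnl1 (368 and 135).

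The lists of known genes were counted as genes that hold such a region or have the TSS nearest to one. Over all 18277 genes this held for 280, or 1.53%, counting symbols found in the annotation, and over the 12383 genes with any base that meets the rule it was 2.26%. Ribosomal protein genes had 0 of 93, which allows a share of up to 3.23% (3 counts of the total). Of the 93, 65 had any base that meets the rule, and 75 had a promoter peak, against 9.43% of all genes. Translation factor genes had 2 of 52 (3.85%, 1.06 to 13.0%), eIF2beta (127) and eIF4EHP (103), which encodes a cap-binding repressor.

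Signalling genes had 6 of 42 (14.3%, 6.72 to 27.8%), or 17.6% of the 34 with any base that meets the rule. All 6 regions were upstream of a TSS of their own gene. InR had 179 in replicate 1 and 151 in replicate 2, with its summit 664 bp upstream of a TSS. Sprouty (sty), a feedback inhibitor of receptor tyrosine kinases, had 182 in replicate 1 and 100.5 in replicate 2, 580 bp upstream. Mad, the SMAD of BMP signalling, had 122 in replicate 1 and 77.3 in replicate 2, 634 bp upstream. The others were shn, a zinc finger partner of Mad (160.1 in the reproducible list), spi, the EGF receptor ligand Spitz (149), and pnt (129.5).

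Polycomb and trithorax genes had 4 of 31 (12.9%, 5.13 to 28.9%), again all upstream of a TSS of their own gene. After ph-p these were Trl, the gene of GAGA factor (148, 268 bp upstream), lola, a BTB zinc finger gene (113, 417 bp), and kis, a chromodomain helicase gene (108, 369 bp). Insulator and promoter factor genes had 3 of 20 (15%, 5.24 to 36.0%): mod(mdg4), Trl and Clamp, a GA-repeat binding zinc finger gene (123). Trl counts in both lists, while mod(mdg4) and Clamp lay downstream of a TSS of their own gene. With counts this small the lists are described, and none was tested against another. Lists were not matched to all genes for number of TSS or length of qualifying intron. Of host genes, 76.5% had more than 1 TSS position, against 28.6% of genes with an intron.

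Neuronal genes had 3 of 29 (10.3%, 3.58 to 26.4%): elav, the neuronal RNA-binding protein gene (177), nrv2, a sodium pump subunit gene (157), and Syx1A, the syntaxin gene of synaptic vesicle fusion (103), which had the nearest TSS to the eIF4EHP region. Muscle genes had 2 of 21 (9.52%, 2.65 to 28.9%), Msp300 (2 regions, 123 and 107), a nesprin gene, and Tm1 (118), a tropomyosin gene. Cell cycle genes had 2 of 29 (6.90%, 1.91 to 22.0%), Cdk4 (229) and Dp (120.2), an E2F partner. Nuclear receptors had 1 of 21 (4.76%, 0.846 to 22.7%), Hnf4, with 2 regions of 176 and 107. The upstream place was not common to all lists. The elav, nrv2 and Dp regions lay downstream of a TSS of their own gene, as did that of eIF2beta. Those of Cdk4, Tm1 and eIF4EHP and the weaker Msp300 region were nearest to a TSS of another gene. The Hnf4 regions and the stronger Msp300 region lay upstream of a TSS of their own gene. Segmentation genes had 0 of 34 (up to 8.82%), Hox genes 0 of 8 (up to 37.5%), actin and microtubule genes 0 of 29 (up to 10.3%) and spindle checkpoint genes, the list nearest to the known role of BuGZ, 0 of 16, which allows up to 18.8%.

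Base composition was given as a description. The median GC content within 100 bp of the summit was 40.5% in peaks, 43.3% in background and 39.3% over all bases that meet the rule. Regions upstream of their own TSS had a median of 37.8%, against 43.3% for background in the same place. Regions downstream had 43.3%, against 42.8% for background in the same place. The split by place was made after the values were seen.

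The core promoter words of DREF and M1BP were rarer in these regions than in promoter peaks, at shares near those of background and of all bases that meet the rule. Motifs were 20 words of known factors, searched on both strands within 100 bp of the summit. TATCGATA, the DRE, was in 1 region, 0.394%, against 9.29% of promoter peaks (difference -8.89 points, -10.6 to -6.59). GGTCACAC, the core bound by M1BP, was in 0 of 254, which allows up to 1.18% (3 counts of the total, the limit used for every count of 0), against 8.40% of promoter peaks. CGATA, the BEAF word contained in the DRE, was in 26.0%, against 43.8% of promoter peaks (difference -17.8 points, -23.5 to -11.5). AGGGCTG, the ZIPIC word, was in 2.36%, against 6.63% of promoter peaks (difference -4.27 points, -6.20 to -1.32), and CAGCTG, an E-box, in 6.69% against 18.0%. In all bases that meet the rule these words were in 0.435% (TATCGATA), 0.243% (GGTCACAC), 21.3% (CGATA), 0.996% (AGGGCTG) and 7.55% (CAGCTG) of windows of the same length.

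Against background of the same class the differences in these words had intervals that held 0. The difference was 0.106 points for TATCGATA (-0.538 to 1.92), 2.93 for CGATA (-2.74 to 9.16, and -1.76 in replicate 2 alone) and 0.921 for AGGGCTG (-0.653 to 3.67). GGTGGCGC, a CTCF core, was in 1.18% of the regions, against 8.71% of intergenic peaks, a difference of -7.53 points (-11.6 to -3.92), and in 0.385% of windows over bases that meet the rule. The other E-box, CACGTG, was in 4.72% of the regions and 2.11% of background (difference 2.61 points, 0.343 to 6.04) and in 2.41% of such windows, but in replicate 2 alone the difference was -0.221 points.

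**Figure D5:**
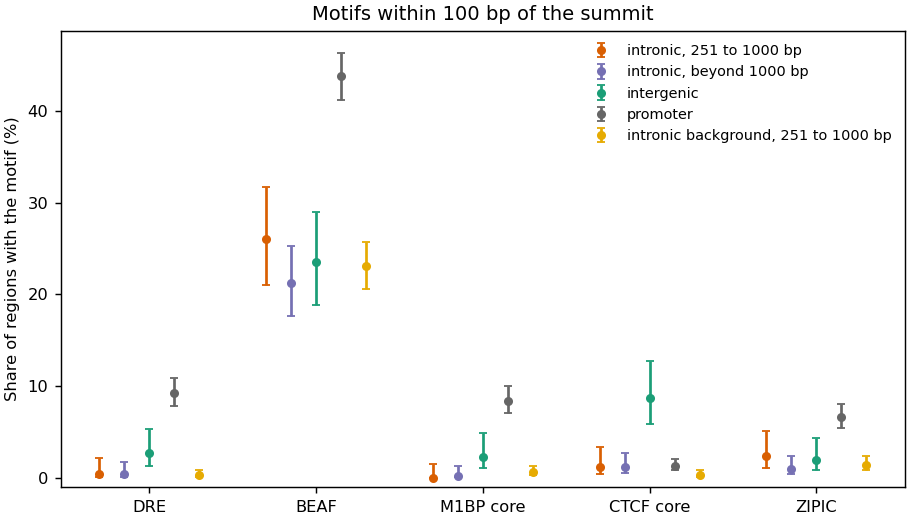
Share in percent (y axis) of regions with each of 5 factor motifs (x axis) within 100 bp of the summit, by class of region, with 95% Wilson intervals. The near-promoter intronic peaks (orange) sit beside the other intronic classes and below promoter peaks for DRE (0.394% against 9.29%), BEAF and M1BP, and below intergenic peaks for the CTCF core (1.18% against 8.71%).

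Simple repeats were compared over all regions and by place. GAGAG was in 30.3% of peaks, 26.3% of background and 21.6% of windows over all bases that meet the rule; the difference from background was 3.99 points (-2.00 to 10.4), and it was 8.75 points in replicate 1 alone and 7.98 in replicate 2 alone. In other classes GAGAG was in 34.2% of deep intronic peaks, 29.9% of intergenic peaks and 26.1% of promoter peaks. CACACACA was in 14.6% of peaks, 10.7% of background (difference 3.90 points, -0.409 to 9.07) and 5.85% of all windows that meet the rule. It was in 10.2% of deep intronic peaks (difference 4.41 points, -0.574 to 9.88), 6.44% of intergenic peaks and 5.23% of promoter peaks. Split by place after the values were seen, CACACACA was in 23.1% of regions downstream of their own TSS, as in CG6333, against 12.7% of background there (difference 10.5 points, 3.24 to 19.1). Upstream it was in 8.25%, against 10.1% of background (-1.87 points, -7.82 to 5.98). GAGAG was in 36.1% of upstream regions, against 26.7% of background there (9.36 points, -1.25 to 20.5), and in 28.9% of downstream regions, against 27.9% (1.02 points, -7.23 to 10.3). No test between places was made. Over all regions TATAAA was in 23.6%, against 20.0% of background (difference 3.64 points, -1.79 to 9.69) and 26.5% of all windows that meet the rule. Deep intronic peaks had it in 26.6%, intergenic and promoter peaks in 26.9%. Split by place after the values were seen, TATAAA was in 32.0% of upstream regions, against 19.4% of background there (difference 12.5 points, 2.51 to 23.3). Downstream it was in 15.7%, against 22.4% of background (-6.65 points, -13.1 to 1.53). Upstream regions also had a lower median GC content than background there (37.8% against 43.3%), and its part in the TATAAA difference was not tested.

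The remaining motifs differed from background by amounts whose intervals held 0. GGTATTTT, the core of motif 6, was in 1.18% of the regions and 1.39% of all windows that meet the rule, and CAACGGT, that of motif 7, in 0.394% and 1.05%. The early embryonic activator Zelda binds CAGGTAG, which was in 0.394% of the regions and 1.02% of such windows, and AGGTAG, the shorter word inside it, was in 2.76% and 3.80%. The initiator word TCAGT was in 28.0% of the regions and 28.7% of windows, the Pho core GCCAT in 29.5% and 32.3%, and the su(Hw) core TGCATAC in 4.33% and 3.02%. A run of AAAAAAAA was in 8.27% and 12.9%, but in 14.1% of the class in replicate 2 alone, where its difference from background was 1.84 points, against -3.55 points in the regions. The GATA factor word AGATAA was in 15.4% and 13.4%, and the AP-1 word TGANTCA in 3.54% and 5.60%.

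Words picked from the counts themselves are given as a description with no test. Of words of 6 bases within 50 bp of the summit, TAAATA had the widest difference, in 25.2% of peaks and 14.1% of background, with 18.9% of all windows that meet the rule, and it was in 31.6% of deep intronic peaks. Of 5 words taken up next, GTAAATA was in 18.5% of peaks, 5.67% of background, 6.73% of all windows that meet the rule, 16.2% of deep intronic peaks and 8.11% of promoter peaks. It was in 16.1% of the same class in replicate 1 alone and 15.9% in replicate 2 alone. ACAGTGG was in 11.4% of peaks, 4.03% of background, 2.63% of all such windows, 9.70% of deep intronic peaks, 9.09% of intergenic peaks and 5.23% of promoter peaks. By strength it was in 20.2% of the strongest 84, 8.33% of the next 84 and 5.81% of the weakest 86. It was in 14.4% of the class in replicate 1 alone but 7.58% in replicate 2 alone. Outside the reproducible list it was in 18.8% of the 48 regions in replicate 1 and 3.80% of the 79 in replicate 2. GTAAACA was in 11.4% of peaks, 7.01% of background and 5.48% of all such windows, CTCGC in 32.7%, 26.5% and 20.2%, and ACACACA in 23.2%, 15.9% and 9.57%. In deep intronic peaks these words were in 16.4% (GTAAACA), 30.3% (CTCGC) and 17.6% (ACACACA).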

How the data were processed

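Chromatin immunoprecipitation peaks were analysed from 2 replicate libraries of 1 group. Per the deposited read-me texts, the authors derived each replicate's candidates from its alignment to dm6 with a control alignment, pooled both for a joint list, and kept regions passing a threshold on the irreproducible discovery rate. No source used here states the aligner, the caller or the threshold. The deposited signal value of each region has no stated scale and served for ranks only. The deposited -log10 q-value was the same for all reproducible peaks and was not used, and the summit came from the deposited offset in bp. Sonicated fragments were 200 to 800 bp per the labels. Read depth is unknown.

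Summits were placed on 18277 genes of Ensembl release 115 (dm6, 1-based, transposable elements left out) with Python 3.11.15, numpy 2.4.6 and pandas 2.3.3; figures used matplotlib 3.10.9. Shares carry 95% Wilson intervals and differences Newcombe intervals; beside a count of 0 the limit given is 3 counts of the total. Motif search and intervals were checked on simulated data. Classification was checked at random positions of chromosome 4 against a direct search of all its transcripts. The regions, 20 motifs and 13 gene lists were chosen with earlier results of these data known. Named were the 25 strongest regions apart from 1 that is not reported here, up to 4 genes per list, hosts with 3 or more regions, regions at the bounds and the 3 with the largest ratio of ranks between replicates. Printed sequences were off one arm, and those for ph-p, Lk6 and SNF4Agamma were the strongest without GAGAG and CACACACA or with GAGAG. For CACACACA, CG6333 (240.2) was printed although a region in bun (266) was stronger. Those for ACAGTGG and GTAAATA were added after the counts were seen, and the ACAGTGG pair was not the strongest with that word. The labels number the libraries as biological replicates and give each its own biosample. Alternatives tried are in the closing section.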

Additional observations from a re-analysis of the deposited data

How the results depend on the processing

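No paired analysis was possible because the series has 1 group. Replicate 2's list gave 277 regions and replicate 1's 236, with 37.5% and 39.4% upstream of a TSS of their own gene. With an inner bound of 500 bp there were 149 regions, of which 62.4% were downstream and 26.2% upstream of their own TSS, against 20.8% of background, and 8.76% of candidates were in the list. The upstream share was 32.3% with an outer bound of 1500 bp, 44.5% with 750 bp and 45.2% (background 30.7%, downstream 42.9%) for intervals free of exon. With protein-coding genes only, 91.9% were nearest to a TSS of their host, and 26.5% of background was upstream. The stronger 50% of the list, which holds fewer peaks by construction, left 129 regions, with 5.04% of candidates in the list, 17.1% with a promoter peak at the host and 88.4% in the top of both replicates. That last share was 40.9% with summits within 50 bp, and 87.0% had a host promoter region anywhere in the candidate list, a looser criterion. The CACGTG difference was -0.221 points without replicate 1 and 1.37 without replicate 2; the cause was not tested. In all, 18 of the main values moved and 82 did not; of the motif values 33 moved, 1 reversed and 426 did not. Depth is unknown, which limits what a missing region can show.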
